A study of Mus musculus with 6 samples.

Results

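The 33 genes described here make up the MHC class I and class II antigen presentation pathways of the mouse. They were chosen by gene symbol from the deposited table of 46983 genes, and all 33 were found in it. RNA was sequenced from MLL-AF9 leukemia cells of 2 genotypes, with 3 untreated libraries each: cells that began as Alox5-/- stem and progenitor cells, and cells that began as wild-type (WT) ones, both of C57BL/6J mice. MLL-AF9 is a fusion protein that drives acute myeloid leukemia in people, and Alox5 encodes 5-lipoxygenase, which starts leukotriene synthesis. Both groups shared the same making: donor marrow cells sorted as lineage negative, Sca-1 positive and c-Kit positive received a retrovirus carrying the fusion, and the GFP-positive cells were placed in irradiated C57BL/6J recipients. The sample titles call the libraries of each group biological replicates (biorepl). The labels give no ages, no pooling, no animal for each library and no detail of the Alox5 allele. Each p-value therefore reflects the spread among these libraries alone, and that spread may still be technical.

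MHC class I molecules show peptides from inside the cell to CD8 T cells. A heavy chain pairs with beta-2 microglobulin and is loaded in the endoplasmic reticulum with peptides that the proteasome cuts and the TAP transporter imports. Class II molecules show peptides from endosomes to CD4 T cells, and most cells outside the dendritic, B cell and macrophage lineages make few of them. The invariant chain Cd74 guards a new class II molecule until H2-DM, which H2-O restrains, exchanges the guard for a peptide. Nlrc5 and Ciita are the master coactivators of class I and class II genes, and both act through the RFX complex at a shared promoter module of X and Y boxes.

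The libraries held 28985597 to 38695948 gene counts, and a count of 0 allows at most 0.0786 to 0.103 CPM, a count scaled to the size of its library after TMM correction, counting error only. Alox5 stood at 64.2 CPM in Alox5-/- against 105 CPM in WT libraries (edgeR adjusted p = 7.65e-10), so the transcript was lower and not lost. Hoxa9, a target of the fusion, was at 307 ± 16.1 and 244 ± 7.89 CPM, and Kit, which encodes c-Kit, at 136 ± 2.73 and 160 ± 3.09 CPM (SD, n = 3 each). Of 10 leukemia and myeloid progenitor markers, 3 rose (Hoxa9 0.33, Cd34 0.36 and Fcgr3 0.21 on the log2 scale), 5 fell (Mpo -1.59, Hoxa10 -0.33, Kit -0.23, Itgam -0.21 and Elane -0.17) and Meis1 and Ly6a were not called. These calls stand beside 53.8% of all tested genes called at an adjusted p under 0.05. Mpo, myeloperoxidase of the granules, measured 65.6 ± 7.76 CPM in Alox5-/- against 197 ± 13.4 CPM in WT, and the part of these markers in the results below was not tested. Ly6a, which encodes Sca-1, was at 0.763 ± 0.158 and 1.06 ± 0.169 CPM, although the donor cells had been sorted for that protein. Alox5-/- replicate 2 stood farther from the others of its group than any other library (chi-square per degree of freedom 8.53 and 9.66, against 2.11 to 4.79 for the other pairs within a group). Without it the counts of called members given below were equal, at 8 class I, 6 class II and 2 other members.

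The promoters of 5 members are shown because their genes parted company in the counts or share a motif. Each is the 200 bases before a RefSeq transcription start in build GRCm38.p6 (the mm10 coordinates), written 5′ to 3′ along the gene. H2-K1 and H2-D1 are the classical class I genes, at chr17:34000348-34000547 (minus strand) and chr17:35262894-35263093 (plus strand). Capitals mark motifs found on either strand: the NF-kB palindrome (the first run of capitals in each), GAANNGAAA, the core of the interferon response element, and ATTGG, the Y box bound by NF-Y.
H2-K1: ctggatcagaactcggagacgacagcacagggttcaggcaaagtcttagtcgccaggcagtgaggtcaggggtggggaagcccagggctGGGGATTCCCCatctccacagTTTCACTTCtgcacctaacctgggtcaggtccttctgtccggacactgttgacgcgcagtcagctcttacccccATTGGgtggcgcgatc
H2-D1: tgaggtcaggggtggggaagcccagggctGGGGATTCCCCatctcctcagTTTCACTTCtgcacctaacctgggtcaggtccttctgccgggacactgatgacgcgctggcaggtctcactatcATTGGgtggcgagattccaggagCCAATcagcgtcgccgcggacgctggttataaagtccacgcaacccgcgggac
In both, the NF-kB palindrome came first, 10 bases then separated it from the interferon element, and Y boxes lay nearer the start. In H2-K1 the palindrome began at -111 from the start shown and at -125 from its other RefSeq start. In H2-D1 it began at -171, so these positions depend on the annotated start. H2-Q6, a non-classical class I gene, had the same order and the same gap of 10 bases. The palindrome stood in 10 of 32851 promoters of 300 bases (0.0304%), and 3 of the 23 members with a promoter in the table held it. It was searched in the exact letters that H2-K1 carries, so the contrast of these shares supports nothing about the members. Close forms that H2-Q4 and H2-Q7 hold before their interferon elements were not counted.

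The other promoters carry letters of the X box, the RFX-bound element. H2-DMb1 encodes the beta chain of the peptide exchanger H2-DM, at chr17:34152991-34153190 (plus strand). H2-Ob, at chr17:34238705-34238904 (plus strand), encodes the beta chain of its inhibitor H2-O, and Mr1, at chr1:155146815-155147014 (minus strand), a class I-like molecule that presents vitamin metabolites. Here capitals mark the X box, searched as AACNGATG or as its first part CCTAGNAAC, and the Y box ATTGG.
H2-DMb1: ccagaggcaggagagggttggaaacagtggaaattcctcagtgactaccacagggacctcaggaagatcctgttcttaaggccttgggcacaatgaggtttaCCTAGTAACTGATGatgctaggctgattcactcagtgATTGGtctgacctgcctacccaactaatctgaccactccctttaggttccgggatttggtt
H2-Ob: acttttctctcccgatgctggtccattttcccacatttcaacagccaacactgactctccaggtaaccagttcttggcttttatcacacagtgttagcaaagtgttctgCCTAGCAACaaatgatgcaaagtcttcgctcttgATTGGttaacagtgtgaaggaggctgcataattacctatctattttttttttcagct
Mr1: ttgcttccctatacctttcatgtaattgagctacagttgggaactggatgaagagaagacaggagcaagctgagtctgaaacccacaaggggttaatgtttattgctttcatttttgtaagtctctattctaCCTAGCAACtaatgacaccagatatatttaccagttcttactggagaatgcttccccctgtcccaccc
In H2-DMb1 both forms of the X box overlap in the letters AAC, and 23 bases part the box from the Y box. H2-Ob and Mr1 hold only the first part, and Mr1 has no ATTGG in its window. AACNGATG stood in 2.32% of all promoters and in 3 of 23 members (H2-DMb1, H2-DMb2 and H2-Eb1), CCTAGNAAC in 1.52% and in 3 of 23 members (H2-DMb1, H2-Ob and Mr1). GAANNGAAA stood in 7.52% of all promoters and in 6 of 23 members (H2-K1, H2-D1, H2-M3, H2-Q4, H2-Q6 and H2-Q7), its form with 1 more A before NN in 3.44% and in 4 members (H2-T22, H2-T23, B2m and Erap1), and ATTGG in 37.4% and in 20 members. The motif CCTAGNAAC was chosen after these letters and values had been read, and a match describes letters, not a bound site. For H2-D1 and H2-DMb1 the GENCODE gene model begins upstream of the RefSeq start.

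The classical heavy chains H2-K1 and H2-D1, B2m and Tap2 were expressed at a high level in both genotypes, and the tested class I genes shifted by less than 1.5-fold in either direction. In the class II pathway H2-DMa, H2-DMb1, H2-Oa, H2-Ob, H2-Ab1 and Ifi30 were clearly detected, while Cd74, H2-Aa, H2-Eb1, H2-DMb2 and Ciita were low. In the fit over all 13705 tested genes, 7379 were called at an adjusted p under 0.05 (53.8%), 26.8% higher and 27.0% lower in Alox5-/- libraries. With library totals alone the calls were 4326 higher and 2959 lower, against 3673 and 3706. Of the 30 members that passed the filter on low counts, 10 rose, 6 fell and 14 were not called. Their median log2 fold change was 0.02, beside a median of 9.97e-05 over all genes. A change of at least 1.5-fold was called for 11.5% of all genes and for 4 members, all higher: Mr1, H2-Aa, H2-Ob and H2-DMb1. The groups' libraries did not overlap for 60.0% of all genes, and for 19 of these members, 11 higher and 8 lower. These counts lie near the background and are no result about the members. H2-Q6, H2-Q7 and H2-Eb1 did not pass the filter. H2-Aa and Ciita passed it only through the Alox5-/- libraries, where they were higher, so these counts and medians support nothing by themselves. In bulk RNA such as this, more cells of a type and more RNA per cell cannot be told apart.

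**Figure D1:**
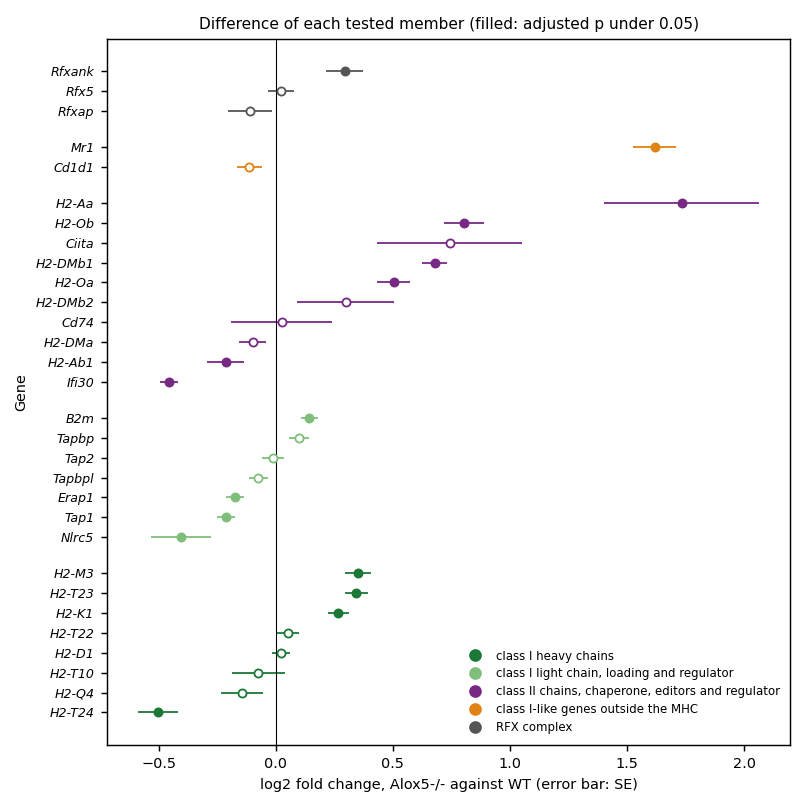
Log2 fold change of each of the 30 tested members, Alox5-/- against WT, on the x axis, with its standard error, by gene on the y axis. Filled points had an adjusted p under 0.05. Class I members lie between -0.50 and 0.35, while H2-Aa (1.73) and Mr1 (1.62) lie farthest to the right. H2-Aa and Ciita passed the filter on low counts only through the Alox5-/- libraries, where they were higher.

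Among the classical heavy chains, H2-K1 rose and H2-D1 was not called. H2-K1 stood at 601, 660.4 and 581 CPM in Alox5-/- replicates 1 to 3 and at 526, 491.5 and 513 CPM in WT. The lowest Alox5-/- library lay above the highest WT library, and the log2 fold change was 0.27 (SE 0.04; edgeR adjusted p = 9.05e-05). H2-D1 was at 498, 541 and 486 CPM in Alox5-/- against 508.5, 488.5 and 505 CPM in WT. Its groups overlapped (edgeR log2 fold change 0.02, SE 0.04; adjusted p = 0.646). Both genes lie on chromosome 17, H2-K1 (ENSMUSG00000061232) from 33996017 to 34000347 and H2-D1 (ENSMUSG00000073411) from 35262730 to 35267499. Without Alox5-/- replicate 2, which had the highest H2-K1 and H2-D1, the log2 fold changes were 0.22 and -0.02.

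The non-classical heavy chains split. H2-T23, the Qa-1 gene read by NK cell receptors, rose from 51.9 ± 3.04 to 66.0 ± 3.5 CPM (log2 fold change 0.34). H2-M3, which presents formylated bacterial peptides, rose from 18.1 ± 0.135 to 23.1 ± 0.917 CPM (0.35). H2-T24 moved the other way: it was at 5.78, 5.88 and 6.29 CPM in Alox5-/- against 9.07, 8.45 and 7.96 CPM in WT. No library of one group reached the other (edgeR log2 fold change -0.50, SE 0.09; adjusted p = 0.00017). H2-T22 (29.5 and 28.5 CPM, Alox5-/- and WT), H2-T10 (3.32 and 3.48 CPM) and H2-Q4 (9.04 and 9.99 CPM) were not called. H2-Q7 lay at 0 to 0.183 CPM, around the level that a count of 0 allows. H2-Q6 was around that level in Alox5-/- (0.0673 to 0.103 CPM) and above it in WT (0.168 to 0.445 CPM, raw counts of 5 to 17). Neither gene was tested.

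Near-identical copies limit the values of some heavy chains. Reads that aligned to several places, 24.4 to 24.8% of all reads, were not counted for any gene. Of the distinct 50-base stretches in the annotated transcripts of H2-T22 and H2-T10, 53.5% and 50.4% also occur in transcripts of other genes, so their counts are uncertain. The shares were 36.4% for H2-Q4, 35.0% for H2-Q6 and 26.5% for H2-Q7. They were lower for H2-K1 (9.63%), H2-D1 (12.8%), H2-T23 (14.5%), H2-T24 (3.17%) and H2-M3 (0.576%), the members on which the differences above rest.

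The light chain rose slightly, and the loading machinery was lower or not called. B2m, beta-2 microglobulin, was at 357.5, 343 and 371 CPM in Alox5-/- against 326.5, 312.5 and 331.5 CPM in WT. These groups did not overlap, by a small margin (edgeR log2 fold change 0.14, SE 0.04; adjusted p = 0.00334). Tap1, a subunit of the peptide transporter, was at 51.5, 53.0 and 51.8 CPM in Alox5-/- against 60.8, 61.2 and 59.3 CPM in WT. The 3 Alox5-/- libraries were all lower (edgeR log2 fold change -0.21, SE 0.04; adjusted p = 0.000224). Its partner Tap2 was at 279 ± 15.4 and 282 ± 18.4 CPM and was not called. Erap1, the aminopeptidase that trims peptides to length, fell by 0.17 on the log2 scale, from 150 ± 7.24 to 133 ± 1.55 CPM. Tapbp (tapasin, 150.1 and 139.9 CPM) and Tapbpl (51.9 and 54.7 CPM), which edit the peptide, were not called. Tapbp was called higher with upper-quartile scaling (edgeR adjusted p = 0.0213), with library totals alone (0.0109), with either other filter (0.013 and 0.0434) and without WT replicate 3 (0.0336), and it shares 20.3% of its 50-base stretches with Gm19412.

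Nlrc5, the class I coactivator, was scarce and lower in Alox5-/- cells. It stood at 3.40, 3.18 and 3.23 CPM there and at 5.16, 3.80 and 4.09 CPM in WT. The WT libraries were all higher, the first by the most (edgeR log2 fold change -0.41, SE 0.13; adjusted p = 0.0142). Without WT replicate 1 the log2 fold change was -0.27 and the call was lost (edgeR adjusted p = 0.0832). In all, 4 of 15 tested class I members rose, 4 fell and 7 were not called (median log2 fold change -0.01). For all genes the shares were 26.8% higher and 27.0% lower, so these counts lie near the background and are no result about class I. Erap1 and Tapbpl overlap Cast and Vamp1 on the other strand, so reads there cannot be told apart without the strand setting. The members that rose were H2-K1, H2-T23, H2-M3 and B2m, and those that fell were H2-T24, Tap1, Erap1 and Nlrc5.

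**Figure D2:**
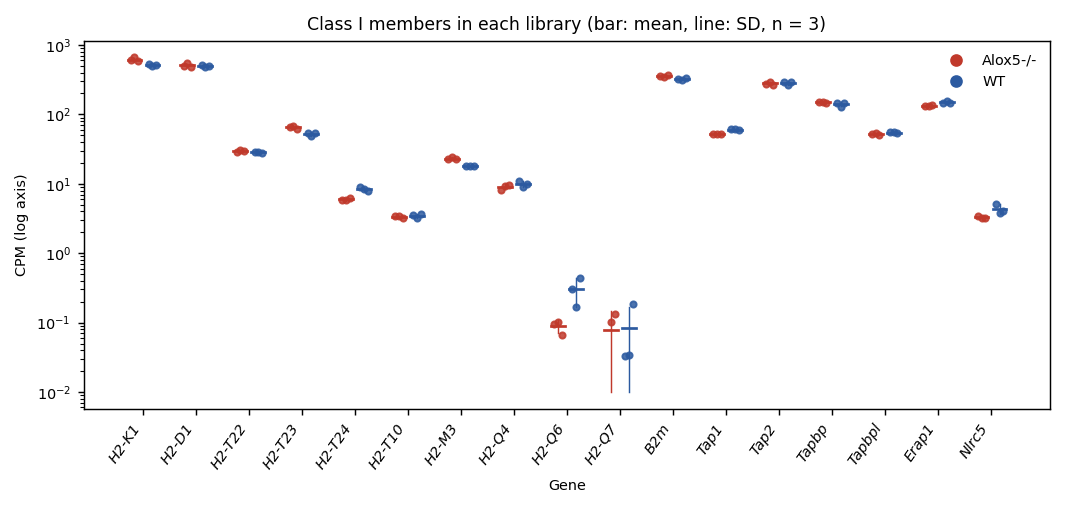
CPM of the 17 class I members (x axis) in each library on a log axis, with the mean as a bar and the SD as a line (n = 3 per genotype). H2-K1, H2-D1, B2m and Tap2 lie at 261 to 660.4 CPM, H2-Q6 and H2-Q7 lie at 0.445 CPM or less. The H2-Q7 value of 0 in Alox5-/- replicate 1 is not drawn, and SD lines that reach 0 are drawn down to 0.01.

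Per kilobase of annotated exon, B2m was the most abundant member in both genotypes, at 415 CPM per kb in Alox5-/- and 376 in WT. H2-K1 (209 ± 14.1) and H2-D1 (197 ± 11.2) followed in Alox5-/- cells, H2-K1 being the higher in each of the 3 libraries. In WT cells H2-D1 (194 ± 4.17) stood above H2-K1 (174 ± 5.94) in each of the 3. On raw counts H2-K1 exceeded H2-D1 in every library of both genotypes (ratios of 1.006 to 1.22). The order of these 2 genes in WT therefore rests on the annotated exon lengths, 2938 bases for H2-K1 and 2579 for H2-D1. Tap2 came next with 73.9 and 74.6 CPM per kb, then Ifi30 with 48.05 and 65.9 and Tapbp with 41.4 and 38.6. The leading class II genes on this scale were Ifi30, H2-DMb1 (28.9 and 18.0), H2-Oa (13.3 and 9.39) and H2-DMa (12.4 and 13.3).

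Of the genes for the presenting class II chains and their chaperone, H2-Ab1 was clearly detected, Cd74 was low, and H2-Aa and H2-Eb1 were near the limit of detection. Cd74, the invariant chain, was at 1.09, 0.992 and 1.24 CPM in Alox5-/- against 0.938, 0.909 and 1.36 CPM in WT. These groups overlapped fully (edgeR log2 fold change 0.02, SE 0.21; adjusted p = 0.932). H2-Aa, the alpha chain of I-A, had raw counts of 21, 16 and 16 in Alox5-/- against 5, 6 and 6 in WT, or 0.674, 0.547 and 0.538 against 0.167, 0.202 and 0.157 CPM. All 3 Alox5-/- libraries were higher (edgeR log2 fold change 1.73, SE 0.33), at a level of under 1 CPM throughout. H2-Aa passed the filter on low counts only through these libraries, so no test is given. H2-Ab1, the matching beta chain, stood at 10.1, 10.9 and 9.11 CPM in Alox5-/- against 12.2, 11.8 and 11.1 CPM in WT. That small fall had no overlap between groups (edgeR log2 fold change -0.21, SE 0.08; adjusted p = 0.0343). The call was lost with DESeq2 (adjusted p = 0.0898), with upper-quartile scaling (edgeR adjusted p = 0.0607) or library totals alone (0.0807), and without Alox5-/- replicate 1 (0.0663) or 3 (0.178) or WT replicate 1 (0.112) or 2 (0.0667). H2-Eb1, a beta chain whose alpha partner is a pseudogene in C57BL/6 mice, lay at 0.0642 to 0.336 CPM and was not tested.

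Several editors of class II peptides rose. Per kilobase of exon, H2-DMb1 and H2-DMa lay above H2-Ab1 (3.92 in Alox5-/- and 4.55 in WT, CPM per kb), Cd74 (0.661 and 0.637) and H2-Aa (0.154 and 0.0462). H2-DMb1 was at 49.0, 47.6 and 49.1 CPM in Alox5-/- against 29.7, 28.4 and 32.7 CPM in WT. The Alox5-/- libraries stood close together and well above every WT library (edgeR log2 fold change 0.68, SE 0.05; adjusted p = 6.07e-08). H2-DMa, the alpha chain that pairs with it, was at 42.8 ± 2.97 and 45.8 ± 2.82 CPM and was not called (log2 fold change -0.10; edgeR adjusted p = 0.16, with 8.43% of its 50-base stretches shared with Brd2 on the other strand). H2-DMb2, a second beta chain gene that shares 22.7% of the 50-base stretches of H2-DMb1, was at 1.47 and 1.21 CPM and was not called (edgeR adjusted p = 0.239). It was called higher only without WT replicate 1 (edgeR adjusted p = 0.0396). How many H2-DMb1 reads were lost to shared stretches is not known.

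Both chains of H2-O, the inhibitor of H2-DM, rose. H2-Ob was at 21.2, 16.99 and 18.2 CPM in Alox5-/- against 11.6, 10.4 and 10.4 CPM in WT. Replicate 1 was highest in its group, and no library overlapped with the other group (edgeR log2 fold change 0.80, SE 0.08; adjusted p = 1.45e-06). H2-Oa was at 18.9, 18.3 and 19.0 CPM in Alox5-/- against 14.3, 11.8 and 13.6 CPM in WT. Again all Alox5-/- libraries were higher (edgeR log2 fold change 0.50, SE 0.07; adjusted p = 2.7e-05). An antisense transcript, BC051537, covers 15.5% of the 50-base stretches of H2-Oa, and its reads cannot be told apart without the strand setting, where it had a mean of 11.7 counts.

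Ifi30, the GILT reductase that opens disulfide bonds of endosomal antigens, fell. It was at 47.1 ± 0.249 CPM in Alox5-/- against 64.7 ± 0.391 CPM in WT, with the tightest replicates of the class II members in relation to their level (edgeR log2 fold change -0.46, SE 0.04; adjusted p = 9.26e-08). Ciita, the class II coactivator, had raw counts of 13, 16 and 16 in Alox5-/- against 9, 10 and 10 in WT, or 0.417, 0.547 and 0.538 against 0.301, 0.337 and 0.262 CPM. The groups did not overlap, and the gene missed the threshold (edgeR log2 fold change 0.74, SE 0.31; adjusted p = 0.0542). It was called with limma-voom (adjusted p = 0.0459), with upper-quartile scaling (edgeR adjusted p = 0.0475) and with library totals alone (0.0444), and DESeq2 gave an adjusted p of 0.239. Ciita passed the filter on low counts only through the Alox5-/- libraries, so these p-values are no support for a difference. Of 10 tested class II members, 4 rose, 2 fell and 4 were not called, beside 26.8% of all genes higher and 27.0% lower. Their median log2 fold change was 0.40 with H2-Aa and Ciita in it, so these counts and this median support nothing by themselves. With upper-quartile scaling or library totals alone the split was 5 higher and 1 lower, with Ciita called and H2-Ab1 not.

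**Figure D3:**
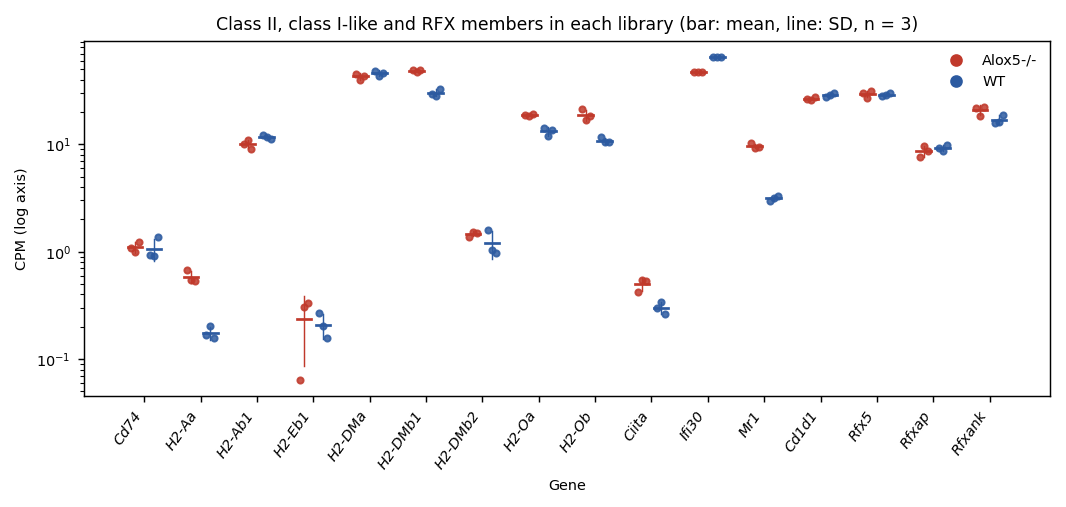
CPM of the class II, class I-like and RFX members (x axis) in each library on a log axis, with the mean as a bar and the SD as a line (n = 3 per genotype). Cd74, H2-Aa, H2-Eb1 and Ciita lie at 1.36 CPM or less in every library, while H2-DMa and H2-DMb1 lie at 28.4 to 49.1 CPM and Mr1 lies at 9.30 to 10.2 CPM in Alox5-/- and 2.98 to 3.28 CPM in WT.

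Of the class I-like genes outside the MHC, Mr1 had the smallest p of all members. It was at 10.2, 9.30 and 9.52 CPM in Alox5-/- against 2.98, 3.17 and 3.28 CPM in WT, from raw counts of 272 to 318 against 89 to 125. The lowest Alox5-/- library was far above the highest WT library (3.07-fold, log2 fold change 1.62, SE 0.09; edgeR adjusted p = 2.22e-09). Mr1 (ENSMUSG00000026471) occupies chromosome 1 from 155127277 to 155146814, minus strand, and shares none of its 50-base stretches with another annotated gene. Cd1d1, which presents lipids to NKT cells, was at 26.6 ± 0.667 and 28.7 ± 1.16 CPM and was not called (edgeR adjusted p = 0.0833).

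In the RFX complex, which carries both coactivators, Rfxank rose and the other subunits were not called. Rfxank was at 21.98, 18.5 and 22.2 CPM in Alox5-/- against 15.9, 16.3 and 18.8 CPM in WT. The groups overlapped, Alox5-/- replicate 2 lying just under WT replicate 3 (edgeR log2 fold change 0.29, SE 0.08; adjusted p = 0.00639). It shares 29.0% of its 50-base stretches with the overlapping gene Nr2c2ap, so its count is uncertain. Rfx5 stood at 29.5 and 29.0 CPM and Rfxap at 8.64 and 9.28 CPM.

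Partner genes were compared within each library as ratios of raw counts, which no scaling affects. These 5 pairs were chosen after the values had been seen. The ratio of H2-K1 to H2-D1 was 1.21, 1.22 and 1.195 in Alox5-/- against 1.03, 1.01 and 1.01 in WT, so that all 3 Alox5-/- libraries lay above the WT libraries. For H2-DMb1 to H2-DMa it was 1.14 ± 0.0616 against 0.661 ± 0.0473, above 1 in every Alox5-/- library and below 1 in every WT library. H2-Ob to H2-Oa gave 1.002 ± 0.106 against 0.820 ± 0.0566, and Tap1 to Tap2 0.187 ± 0.00758 against 0.215 ± 0.0169. H2-Aa to H2-Ab1 gave 0.0585 ± 0.00824 against 0.0150 ± 0.00186 (SD, n = 3 each). Since the pairs were picked on their values, that the genotypes do not overlap restates the choice, and no test is given. H2-Aa passed the filter only through the Alox5-/- libraries, and its ratio rests on 5 to 21 counts.

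**Figure D4:**
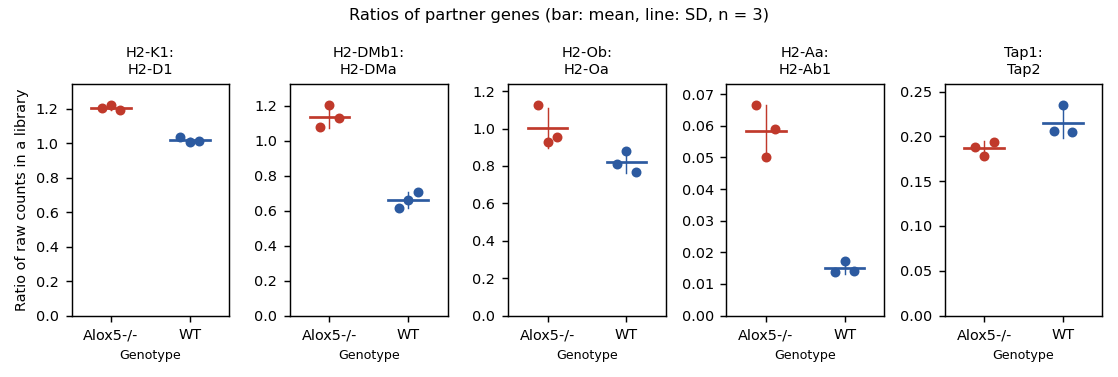
Ratio of the raw counts of 2 partner genes in each library (y axis, from 0), by genotype (x axis), with the mean as a bar and the SD as a line (n = 3). The pairs were picked on these values, with H2-DMb1 to H2-DMa at 1.14 in Alox5-/- and 0.661 in WT.

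Neighbours in the class II region of chromosome 17 did not all go the same way. From H2-Oa to H2-Aa, a span of 195 kb, 13 genes were tested, of which 5 rose, 2 fell and 6 were not called. Of all tested genes 53.8% were called, so the number called here lies near the background and is no result about the region. H2-Oa (0.50) and H2-DMb1 (0.68) rose with H2-DMa (-0.10) between them uncalled. Tap1 fell while Psmb9, an immunoproteasome subunit gene that meets it head to head, rose by 0.17 on the log2 scale. H2-Ob (0.80) and H2-Ab1 (-0.21), adjacent genes on the plus strand, went opposite ways.

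**Figure D5:**
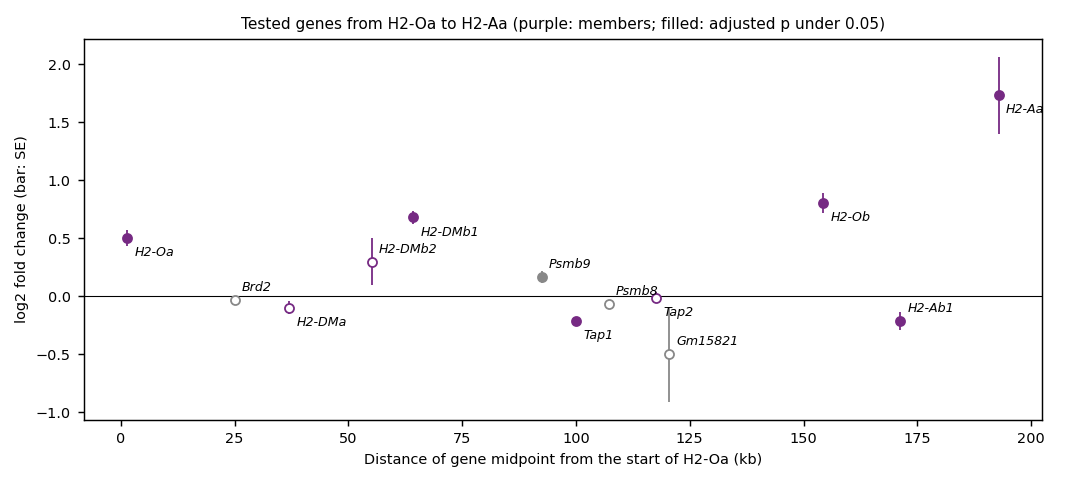
Log2 fold change with its SE (y axis) of the 13 tested genes from H2-Oa to H2-Aa against the distance of the gene's midpoint from the start of H2-Oa in kb (x axis). Members are purple, other genes grey, and filled points had an adjusted p under 0.05. Genes higher, lower and not called are interspersed along the 195 kb.

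Genes that act around the members were read from lists of companions. Of the 54 tested companion genes, 14 rose, 14 fell and 26 were not called, beside 26.8% of all genes higher and 27.0% lower. Those counts lie near the background and are no result about the companions as a whole. In class I assembly, 6 of 11 ER chaperone and trimming peptidase genes fell and 5 were not called (median -0.19). The chaperones Calr (-0.40), Pdia3 (-0.32) and Canx (-0.24) and the translocon gene Sec61a1 (-0.31) fell, as edgeR log2 fold changes. Calr, calreticulin, went from 3469 ± 62.6 CPM in WT to 2625 ± 50.5 CPM. Of 5 immunoproteasome and activator genes, Psmb9 rose (0.17), Psmb10 fell (-0.24) and 3 were not called. The Psmb9 call was lost without WT replicate 3 (edgeR adjusted p = 0.0573).

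Among endosomal proteases and trafficking genes, 5 of 11 rose, 1 fell and 5 were not called (median 0.18). For all genes the shares were 26.8% higher and 27.0% lower. Ctsl, cathepsin L, went from 62.9 ± 1.115 to 111.5 ± 1.81 CPM (log2 fold change 0.83), and Ctsb and Ctsd each rose by 0.37. Ctsh was the exception, at 2.80 ± 0.583 in Alox5-/- and 7.49 ± 0.527 CPM in WT (-1.42). Ctss, the protease that trims the invariant chain, was named after its values were seen and rose from 11.6 ± 0.936 to 19.3 ± 1.17 CPM (0.74).

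The interferon gamma pathway, which induces both coactivators, had genes called in both directions. Of its 10 genes 3 rose, 2 fell and 5 were not called (median 0.07), beside 26.8% of all genes higher and 27.0% lower. Irf8 (0.38), Jak2 (0.37) and Irf2 (0.15) rose and the receptor chain Ifngr2 (-0.14) fell, while Irf1 (38.5 and 36.7 CPM), chosen after its values were seen, was not called. The Ifngr2 call was lost with library totals alone (edgeR adjusted p = 0.0731) and without WT replicate 3 (0.06). In type I interferon signalling 3 of 7 rose (Irf7 0.78, Ifnar2 0.39, Irf9 0.21) and 4 were not called. Of the Y box and CRE binding factors, Nfya (-0.38) and Nfyc (-0.16) fell, and the other 2 of 4 were not called.

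Markers of cells rich in class II were read beside the class II members, and their part in those values was not tested. The calls among them stand beside 26.8% of all genes higher and 27.0% lower. Of 10 dendritic cell markers 2 passed the filter, and both rose: the integrin Itgax from 5.41 ± 0.265 to 11.3 ± 0.214 CPM and the lectin Clec10a from 11.4 ± 0.106 to 16.6 ± 0.213 CPM. The summed level of the 10 was 28.1 to 28.6 CPM in Alox5-/- and 17 to 17.8 CPM in WT. The defining genes Zbtb46, Xcr1, Siglech and Batf3 were at or near 0, with no library above 0.205 CPM. Of 10 B cell markers Ighm and Cd79b passed and neither was called (sum 50.3 to 56.5 and 49.2 to 52.5 CPM), and Ms4a1 and Pax5 were at most 0.103 CPM. The macrophage list summed to 36.4 to 40.2 CPM in Alox5-/- and 46.4 to 49.4 CPM in WT, with 1 of 3 tested markers lower (Adgre1, -0.39) and C1qa, C1qb, C1qc, Vsig4 and Marco at 0 to 0.0337 CPM. T and NK cell markers summed to at most 0.257 CPM, erythroid markers to 0.865 CPM and endothelial and stromal markers to 0.889 CPM.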

How the data were processed

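Poly-A RNA of 6 libraries, made with the SMARTer kit after sorting per the labels' protocols, was analysed. The authors deposited raw read counts per gene, 1 column per library. Per the submitters' processing notes, counting used HTSeq on mm10, and DESeq2 is named. No source used here gives the aligner, tool versions, annotation release or strand setting. The summary rows at the foot of the table (such as reads aligned to several places) were left out of library sizes. Gene counts made up 60.0 to 60.9% of all reads.

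Alox5-/- was compared with WT in R 4.3.3 with edgeR 4.0.16: TMM scaling, the default expression filter, the quasi-likelihood F-test with no covariate, and Benjamini-Hochberg adjustment over all tested genes (threshold 0.05). The test was tried on simulated counts with known changes, with the same spread for every gene and changes only in genes above a minimum mean count. That trial says nothing about spread that differs between genes, or about scarce genes such as H2-Aa and Ciita. CPM values use TMM library sizes, as mean ± SD of 3 libraries. SE is the log2 coefficient over the root of its F. Exon lengths and positions came from GENCODE vM21 (mm10), matched by gene identifier for 33 of 33 members, and 27 symbols that had become dates were restored by identifier. Promoters came from RefSeq (GRCm38.p6), with 23 of 33 members matched. Shared 50-base stretches were counted over GENCODE transcripts; no source used here gives the read length.

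Members and lists were chosen with earlier results of these data known. Values in every library are given for H2-K1, H2-D1, B2m, Nlrc5, Tap1, Cd74, H2-Aa, H2-Ab1 and Ciita, and for called members with an absolute log2 fold change of at least 0.5. Other members are given by means, with Rfxank added because its groups overlap. Up to 4 called genes with the smallest p are named per companion list. Alternatives were DESeq2 1.42.0, limma-voom (limma 3.58.1), other scalings and filters, a robust fit, a replicate block, a 1.5-fold minimum and each library left out.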

Additional observations from a re-analysis of the deposited data

How the results depend on the processing

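Of 30 tested members, 24 kept their direction or stayed uncalled, on the same side of the threshold, under every tool, scaling, filter, robust fit, block and left-out library that gave a value. The other 6 (Tapbp, Nlrc5, H2-Ab1, H2-DMa, H2-DMb2 and Ciita) crossed it in at least 1 setting. H2-DMa was called lower without WT replicate 2 (edgeR adjusted p = 0.0486), and the other 5 are given with their results. No called member changed sign. With library totals alone the median of all genes shifted by 0.04 on the log2 scale. With upper-quartile scaling 4076 genes were higher and 3201 lower. A 1.5-fold minimum left 1581 of 7379 genes, 0 of 8 class I, 3 of 6 class II and 1 of 2 other members. H2-Aa is counted among these class II members and among the 24. It passed the filter on low counts only through the Alox5-/- libraries, so its call adds no support. With 1 library left out, the calls numbered 6583 to 7251 over all genes, 7 to 9 in class I, 5 to 6 in class II and 2 to 2 among other members. Same-numbered libraries did not deviate together (r = -0.04, -0.13 and -0.01), and none correlated best with its own number, so the numbers do not pair them. With the replicate block 7029 genes were called, and 8, 6 and 2 members. H2-Q6 was called lower with no filter (edgeR adjusted p = 0.00649), at a mean of 0.305 CPM in WT. Depth limits H2-Q6, H2-Q7, H2-Eb1, H2-Aa and Ciita.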

Other observations

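Ligands that decide what a T cell does after meeting an MHC molecule were called in both directions. Of 9 costimulatory and inhibitory ligand genes 6 were tested, 2 rose, 2 fell and 2 were not called. For all genes the shares were 26.8% higher and 27.0% lower. Cd274, which encodes the inhibitory ligand PD-L1, was at 18.3, 17.2 and 18.9 CPM in Alox5-/- against 11.4, 11.9 and 12.7 CPM in WT (edgeR log2 fold change 0.59, SE 0.07; adjusted p = 2.94e-06). Icosl rose from 38.6 ± 1.92 to 45.6 ± 1.74 CPM. Cd80, a ligand of CD28, fell from 1.91 ± 0.44 to 0.878 ± 0.0693 CPM, and Tnfsf9, the 4-1BB ligand, from 2.22 ± 0.664 to 0.899 ± 0.124 CPM. Cd40 and Tnfsf4 lay at 0.1 CPM or less in every library.

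The table held 25 further H2 genes, of which 14 had no count in any library, 7 averaged under 5 counts and 4 more. H2-Eb2, a class II beta chain gene, had raw counts of 23, 19 and 23 in Alox5-/- and 10, 8 and 7 in WT. H2-Bl had 21, 10 and 11 against 3, 3 and 13, with WT replicate 3 (0.341 CPM) next to Alox5-/- replicate 2 (0.342 CPM). Both passed the filter only through the Alox5-/- libraries, where they were higher, so no test is given. H2-K2 and H2-Q10 were not called. These genes were named after their values were seen.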
